A study of Mus musculus with 2 samples.

Results

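The mitochondrial genome held 2169 of the 1110074 crosslinked positions in a Tia1 iCLIP map of activated mouse B cells, with 4694 of 1582633 unique cDNAs. The members were all positions on chrM in the unfiltered map, which sums 2 replicates, together with the chrM positions in the lists of low-FDR sites, which are positions where cDNAs cluster more than in permuted data (false discovery rate under 0.05). The sum of both replicates had 642 such sites on chrM among 422150, replicate 1 had 519 among 342732, and replicate 2 had 170 among 93512. A position counts once however many cDNAs it holds, and each cDNA is a distinct reverse transcription product told apart by its random barcode.

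In iCLIP, a crosslinking and immunoprecipitation assay read at single nucleotides, UV light joins protein to RNA, an antibody recovers both, and the nucleotide next to the start of each cDNA is taken as crosslinked. The only group held splenic B cells of C57BL/6 mice after 48 hours with lipopolysaccharide (LPS, 10 µg/ml), lysed so as to leave the nuclei out, and no control sample was analysed here. The sample titles name Tia1, a protein of stress granules that binds uridine-rich RNA, while the antibody field in the labels names the related Tial1 and the study's methods an antibody to Tia1; the name in the titles is used. The mice were 8 to 12 weeks old. Their number per replicate is not stated in the sources at hand. In low-FDR sites on exons, the B cell genes Cd79a, Cd79b, Ms4a1, Pax5 and Cd74 held 2942 cDNAs in replicate 1 and 640 in replicate 2, against 4 and 0 for 5 T cell genes, 29 and 6 for 4 myeloid genes and 25 and 3 for 4 erythroid genes. All 5 B cell genes had low-FDR cDNAs in replicate 1, and all but Cd79a in replicate 2.

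Mitochondrial DNA is transcribed from both strands into long precursors, from which tRNAs are cut out and so release the rRNAs and mRNAs between them. The rRNAs mt-Rnr1 and mt-Rnr2 form the small and large subunits of the mitochondrial ribosome, and the mRNAs encode core subunits of the respiratory chain and of ATP synthase. These RNAs are made and translated inside the mitochondrial matrix, and the precursor of the minus strand carries a single coding gene, mt-Nd6, and several tRNAs. In these bulk samples, fewer mitochondria, less RNA per mitochondrion and less crosslinking cannot be told apart, since no RNA level was measured here.

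The surroundings of some of the strongest positions are shown as 25-nt windows, 5′ to 3′ on the crosslinked strand, with the crosslinked nucleotide in capitals. The sequence is that of the RefSeq mitochondrial record of GRCm38, which numbers positions as the authors' mm9 files do. The first 6 windows are the highest positions of the plus strand, the next pair the highest of the minus strand, and the last the highest position of mt-Co1, which stands for the coding genes.
mt-Rnr2 nucleotide 228 (chrM:1309-1333, plus): uaaaagaauuacAgcuagaaacccc
mt-Rnr2 nucleotide 761 (chrM:1842-1866, plus): caccuauaacuuCucuguuaaccca
mt-Rnr1 nucleotide 269 (chrM:326-350, plus): acgauuaacccaAacuaauuaucuu
mt-Rnr2 nucleotide 377 (chrM:1458-1482, plus): aaugaauuuaagUucaauuuuaaac
mt-Rnr2 nucleotide 762 (chrM:1843-1867, plus): accuauaacuucUcuguuaacccaa
mt-Tl1 nucleotide 28 (chrM:2691-2715, plus): ccaggaaauugcGuaagacuuaaaa
mt-Tc nucleotide 30 (chrM:5216-5240, minus): caugucgaauugCaaauucgaaggu
mt-Tp nucleotide 34 (chrM:15377-15401, minus): uaccagcuuuggGugcugguggugg
mt-Co1 nucleotide 1044 (chrM:6359-6383, plus): uauuuucuuauuUacaguugguggu

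Mitochondrial RNA made up 0.297% of all cDNAs (95% exact binomial interval 0.288 to 0.305%; intervals here cover counting error only). Crosslinks came almost wholly from the plus strand, with 4465 cDNAs at 2015 positions, against 229 cDNAs at 154 positions on the minus strand. The plus strand thus held 95.1% of the cDNAs (94.5 to 95.7%). Among low-FDR sites it held 1358 of 1383 cDNAs in replicate 1 and 363 of 371 in replicate 2, which is 98.02% ± 0.247 (SD, n = 2). The chrM share of low-FDR cDNAs was 0.216% in replicate 1 and 0.225% in replicate 2. Their exact intervals (0.205 to 0.228% and 0.202 to 0.249%) overlapped, while the chrM totals followed the depth of the replicates.

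Assigned to the 37 mitochondrial genes of GENCODE M21, 98.6% of the cDNAs within genes (98.3 to 98.9%) lay on the coding strand of a gene. The rRNA genes held 3494 cDNAs, the 13 coding genes 767 and the 22 tRNA genes 342, with 64 cDNAs antisense to a gene and 27 outside genes. The rRNAs therefore took 75.9% of the sense cDNAs (74.6 to 77.1%) on 2537 nt of sequence. Per 100 nt, cDNAs numbered 137.7 in rRNAs (Poisson interval 133.2 to 142.4), 22.8 in tRNAs (20.4 to 25.3) and 6.76 in coding genes (6.29 to 7.25), so the intervals of the 3 classes did not overlap. Many tRNA and coding nucleotides lie in sequence that recurs in the nuclear genome, as described further on, and per 100 unique nt the values were 145.1, 39.9 and 12.4 in the same order.

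**Figure D1:**
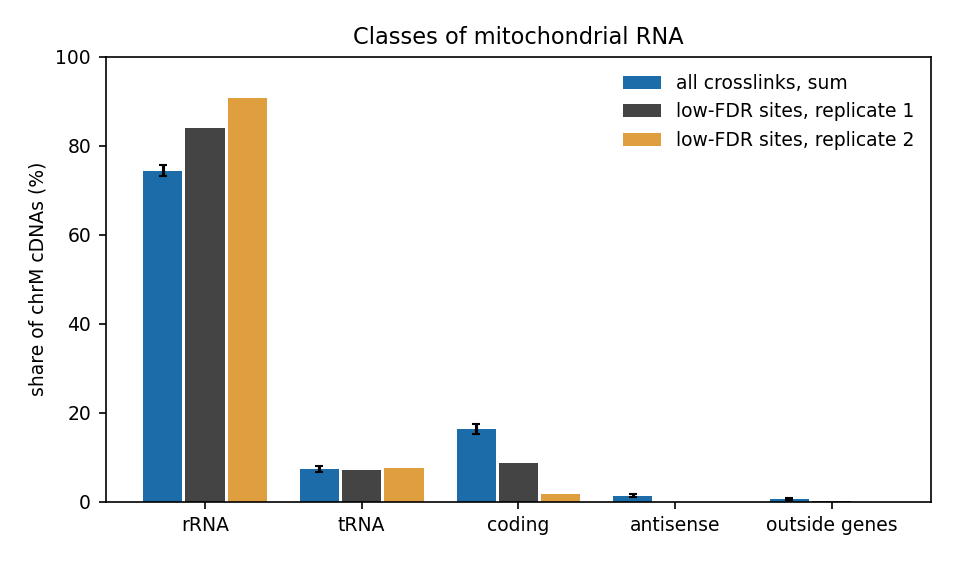
Share of the chrM cDNAs (vertical axis, %) in each class of mitochondrial RNA, for all crosslinks of both replicates summed (blue, with 95% exact binomial intervals) and for the low-FDR sites of each replicate (grey and orange). The rRNA bar is the highest in every set, at 74.4% of all chrM cDNAs, 84.0% in replicate 1 and 90.8% in replicate 2, and coding genes hold 16.3%, 8.68% and 1.62%.

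Among low-FDR cDNAs the rRNA share was 84.0% in replicate 1 and 90.8% in replicate 2. The tRNA share was nearly equal, at 7.16% and 7.55%, with 99 and 28 cDNAs. Coding genes differed between the replicates, with 120 cDNAs (8.68%) in replicate 1 and 6 (1.62%) in replicate 2. All 6 were in mt-Co1, the catalytic core of cytochrome c oxidase. With 2 replicates, no test of this difference over samples was possible. The lists came from replicates of unlike depth, with 639108 and 165081 low-FDR cDNAs over all chromosomes. The part of depth in the difference was not tested.

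Both rRNAs were crosslinked along their length. The 12S rRNA mt-Rnr1 (chrM:70-1024) held 1240 cDNAs at 493 positions, or 129.8 per 100 nt (122.7 to 137.3). The 16S rRNA mt-Rnr2 (chrM:1094-2675) held 2254 cDNAs at 803 positions, or 142 per 100 nt (136.7 to 148.5). Crosslinks were seen at 51.6% and 50.8% of their nucleotides, with a median of 2 cDNAs per crosslinked position in each. In low-FDR sites, mt-Rnr1 held 369 cDNAs in replicate 1 and 68 in replicate 2, and mt-Rnr2 held 793 and 269. The small-subunit rRNA thus took 31.8% of the rRNA cDNAs in replicate 1 (29.1 to 34.5%) and 20.2% in replicate 2 (16.0 to 24.9%), against 35.5% of all crosslinks.

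Within mt-Rnr1, the full 100-nt windows ranged from 77 to 222 cDNAs with a median of 143. The last 55 nt held 27, which is 49.1 per 100 nt, with no low-FDR cDNAs in either replicate. The highest window was nucleotides 301 to 400. Low-FDR cDNAs in that window numbered 146 in replicate 1 and 2 in replicate 2. In replicate 2 nearly all low-FDR cDNAs of this rRNA lay in nucleotides 1 to 100 and 201 to 300, with 33 each, where replicate 1 had 26 and 23. In the first of these windows, nucleotides 87, 88, 90, 91, 97, 98 and 99 were low-FDR sites in both replicates. In nucleotides 201 to 300, only nucleotide 281 was a low-FDR site in both.

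Within mt-Rnr2, full windows ranged from 43 to 204 cDNAs with a median of 143. Nucleotides 1101 to 1500 held 194, 189, 204 and 192 cDNAs in successive windows, and the last 82 nt held 225, which is 274 per 100 nt. Low-FDR cDNAs in those last 82 nt numbered 142 in replicate 1 and 51 in replicate 2. Unlike in mt-Rnr1, both replicates had low-FDR cDNAs in every window from nucleotide 1001 to the 3′ end. The windows with the fewest cDNAs were nucleotides 401 to 500 with 43 and 601 to 700 with 67, of which 70% and 32% of nucleotides had a unique 32-mer as defined further on. Nucleotides 501 to 600 (64% unique) held 120, 1001 to 1100 (66% unique) held 143 and 801 to 900 (94% unique) held 72. These window totals mix unique and repeated nucleotides. Over both rRNAs, nucleotides with a unique 32-mer had 145.1 cDNAs per 100 nt (3405 on 2346 nt). Those with a repeated one had 46.6 (89 on 191 nt). Across full windows, cDNAs and the share of U had a Pearson r of 0.60 in mt-Rnr1 (n = 9) and 0.46 in mt-Rnr2 (n = 15), given as a description, since windows of 1 RNA share libraries and neighbouring sequence.

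**Figure D2:**
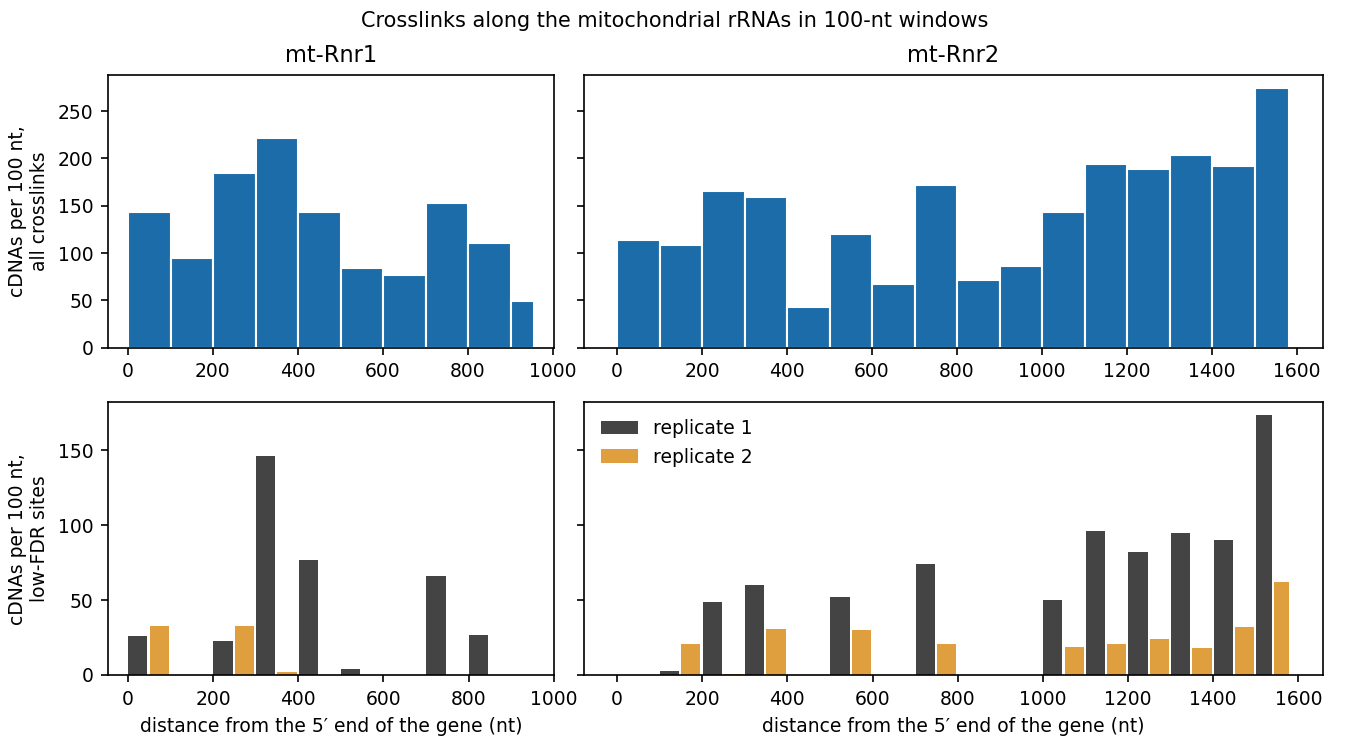
cDNAs per 100 nt (vertical axes) in successive 100-nt windows of mt-Rnr1 (left) and mt-Rnr2 (right), against the distance from the 5′ end of the gene in nt, for all crosslinks of both replicates summed (top) and for low-FDR sites of each replicate (bottom). The last window of mt-Rnr2 is the highest at 274, and in nucleotides 301 to 400 of mt-Rnr1 replicate 1 has 146 low-FDR cDNAs and replicate 2 has 2.

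Of the 10 highest positions of the plus strand, 8 lay in mt-Rnr2, and all 10 were low-FDR sites of the sum. Nucleotide 228 of mt-Rnr2 (chrM:1321) led with 27 cDNAs on an A, although it was not a low-FDR site in either replicate alone. Nucleotides 761 and 762 held 19 and 15 cDNAs, of which 15 and 7 were in replicate 1 and 4 and 8 in replicate 2. The highest position of mt-Rnr1, nucleotide 269, held 18 cDNAs on an A, with 7 in replicate 2 and no low-FDR call in replicate 1. Nucleotide 377 of mt-Rnr2 held 16 on a U, with 13 and 3 by replicate. Single nucleotides made little of the rRNA totals, since leaving out its highest position took mt-Rnr2 from 142 to 140.8 cDNAs per 100 nt.

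The tRNAs held fewer crosslinks than the rRNAs that they border, and 13 of 22 held any. Per 100 nt, mt-Tv (valine), which lies between the rRNAs, had 69.6 cDNAs (51.3 to 92.2), and mt-Tl1 (leucine), which follows mt-Rnr2, had 66.7 (49.5 to 87.9). Next came mt-Tm (methionine) with 58.0 (41.4 to 78.9), mt-Tp (proline) with 53.7 (37.6 to 74.4) and mt-Tc (cysteine) with 48.5 (33.2 to 68.4). The intervals of these neighbours overlap, so their order is not settled. Without its highest position, mt-Tv had 59.4, mt-Tl1 46.7, mt-Tm 49.3, mt-Tp 38.8 and mt-Tc 33.3. The order also depends on repeated sequence. Per 100 unique nt, as defined further on, mt-Tr had 58.3 from 7 cDNAs (17.6% unique) and mt-Ta 52.8 (52.2% unique). On that scale mt-Tm had 58.0, mt-Tp 55.4 and mt-Tc 53.5. The pair mt-Tp and mt-Tc is encoded on the minus strand, where tRNAs held 111 of the 229 cDNAs. Only mt-Tv, mt-Tl1 and mt-Tc had low-FDR cDNAs in both replicates, with 11 and 5, 19 and 15, and 2 and 8 cDNAs in replicates 1 and 2.

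Within tRNAs the crosslinks were not spread evenly. Nucleotides 11 to 50 held 302 of the 342 tRNA cDNAs, or 88.3%, nucleotides 1 to 10 held 26, and everything past nucleotide 50 held 14. A cDNA covers the sequence 3′ of its crosslink, and the tRNA genes are 59 to 75 nt long, so little tRNA sequence is left past nucleotide 50. The part of this in the low count there was not tested. The leading nucleotides were 28 of mt-Tl1 with 15 cDNAs (8 and 7 by replicate), 30 of mt-Tc with 10 (6 in replicate 2), 34 of mt-Tp with 10 (none at low-FDR sites) and 36 of mt-Tf, the phenylalanine tRNA, with 9 (8 in replicate 1). These nucleotides are G, C, G and A. U stood at 46.5% of the tRNA cDNAs (41.1 to 51.9%), against 31.5% of tRNA nucleotides, the smallest excess among the classes.

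**Figure D3:**
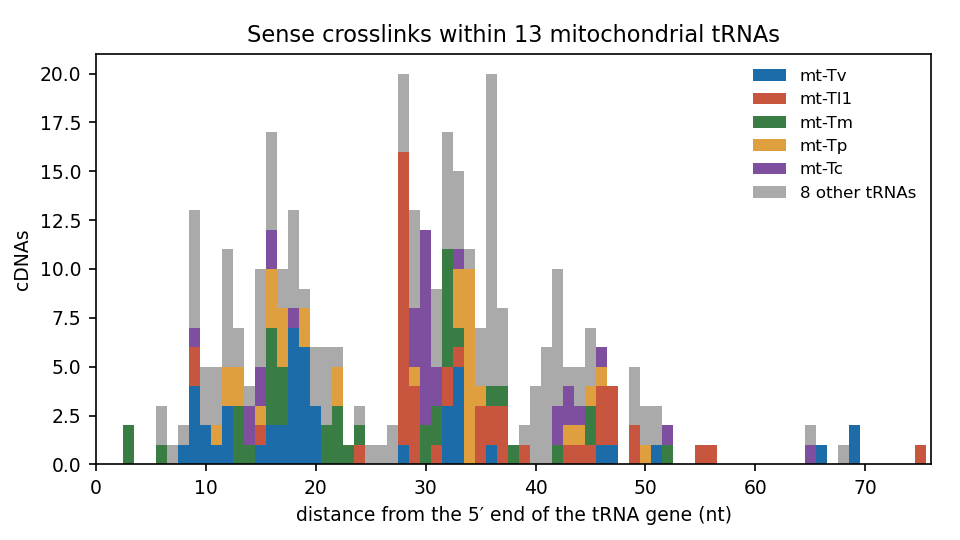
cDNAs (vertical axis, both replicates summed) at each nucleotide of the 13 crosslinked tRNAs, against the distance from the 5′ end of the tRNA gene in nt, stacked by tRNA. Most cDNAs lie between nucleotides 11 and 50, the peak at nucleotide 28 is mostly mt-Tl1, and 14 cDNAs lie past nucleotide 50.

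Coding genes with crosslinks were those of complex I, complex III and complex IV. Per 100 nt, mt-Nd1, a complex I subunit, had 14.4 cDNAs (12.1 to 17.0) from 138 cDNAs, and mt-Co1 had 12.04 (10.4 to 13.9) from 186. The complex III subunit mt-Cytb, cytochrome b, had 11.2 (9.33 to 13.3) from 128, and mt-Nd6, the minus strand gene, had 10.8 (8.15 to 14.01) from 56. Neighbours in this order had overlapping intervals. Lower values were found for the complex I subunits mt-Nd5 with 7.84 (6.61 to 9.24) from 143, mt-Nd2 with 5.97 (4.58 to 7.66) from 62 and mt-Nd4 with 3.92 (2.94 to 5.11) from 54. Coding crosslinks were thin, with 1.25 cDNAs per crosslinked position against 2.70 in rRNAs, and no position of a coding gene exceeded the 6 cDNAs at nucleotide 1044 of mt-Co1, all 6 from replicate 1.

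Along the 5 coding genes in which over 80% of nucleotides were unique, crosslinks were spread over the whole length. The 5′ part of these genes, cut into 3 equal parts, held 11.5 cDNAs per 100 unique nt (9.98 to 13.2), the middle part 9.09 (7.69 to 10.7) and the 3′ part 10.9 (9.33 to 12.7), with overlapping intervals. Low-FDR sites of the sum were found in mt-Co1 (95 cDNAs), mt-Nd4 (26), mt-Nd6 (21), mt-Nd5 (20) and mt-Nd2 (10). No low-FDR site fell in mt-Nd1 or mt-Cytb, although their cDNAs per 100 nt were among the highest of the coding genes. For mt-Co1 the replicates had 73 and 6 low-FDR cDNAs.

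No crosslink was found on the sense strand of 15 genes, namely the coding genes mt-Co2, mt-Co3, mt-Atp6, mt-Atp8, mt-Nd3 and mt-Nd4l and 9 tRNA genes. Of these, 9 lie wholly in a stretch of 3430 nt with no crosslink on either strand (chrM:6386-9815), and mt-Nd4l in a second one of 1194 nt (chrM:9831-11024). In the 3430 nt stretch, 98.3% of the 32-nt sequences starting just after a plus strand nucleotide also occur in the nuclear genome of GRCm38. The longest such copy, on chromosome 1 (GRCm38, chr1:24611535-24616184), shares 4563 such sequences with chrM. Among the 15 genes, 10 had no nucleotide with a unique 32-mer, and the highest share was 44.1%, in the glycine tRNA mt-Tg.

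Within genes too, repeated nucleotides held fewer cDNAs, to a degree that differed by class. On the plus strand, coding nucleotides with a unique 32-mer had 12.5 cDNAs per 100 nt (687 on 5517 nt), and those with a repeated one had 0.452 (24 on 5312 nt). For tRNAs the values were 38.9 and 0.278 on the plus strand, and 42.5 and 5.97 on the minus strand. For mt-Nd6 they were 11.3 and 3.23 (1 cDNA on 31 nt), and for rRNAs 145.1 and 46.6. Counted at unique nucleotides only, mt-Co1 rose from 12.04 to 30.3 cDNAs per 100 nt (25.9 to 35.2) and became the highest coding gene, and mt-Nd4 went from 3.92 to 10.6 (7.92 to 13.8). The nuclear copy on chromosome 1, 4650 nt long, held 0 low-FDR sites. The map had 17 cDNAs in all between the nearest low-FDR sites on its sides, a stretch of 677082 nt in mm9. How many of these lay on the copy itself was not counted. The rule for reads with several matches is not stated in the sources at hand, and the length of each read is unknown. The part of repeated sequence in these zeros was not tested beyond these values, and the 10 genes without a unique 32-mer cannot be read as free of crosslinks.

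**Figure D4:**
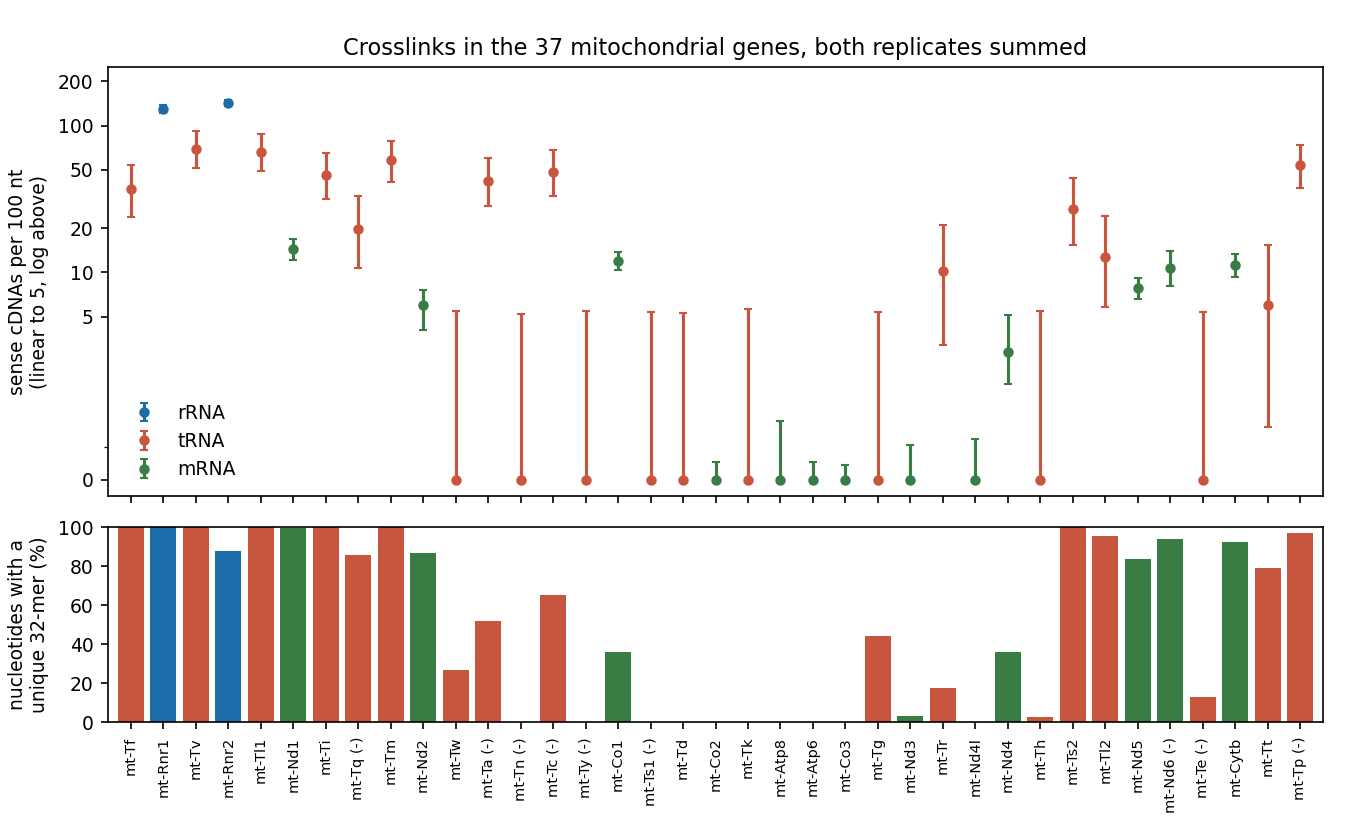
Top, sense cDNAs per 100 nt (vertical axis, linear up to 5 and logarithmic above) for the 37 mitochondrial genes in genome order, both replicates summed, with 95% Poisson intervals; genes on the minus strand are marked (-). Bottom, the share of each gene's nucleotides with a unique 32-mer (%). The rRNAs stand at 129.8 and 142, and each of the 15 genes at 0 has under 50% unique nucleotides.

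The minus strand encodes 8 tRNAs and mt-Nd6, and 72.9% of its cDNAs (66.7 to 78.6%) were sense to them, against 99.4% on the plus strand (99.1 to 99.6%). Antisense crosslinks reached 10 cDNAs for mt-Nd5 with 30 and mt-Nd6 with 16. Of the 30 cDNAs of the minus strand opposite mt-Nd5, 23 lay in the 600 nt past the annotated end of mt-Nd6 (chrM:12952-13551) and 7 in the remaining 1210 nt, a division chosen after the values were seen. The other rRNA and coding genes of the plus strand had 10 antisense cDNAs in all. None of the 64 antisense cDNAs was at a low-FDR site.

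In the control region, which holds the promoters and the replication origin of the heavy strand, 16 cDNAs lay on the minus strand and 2 on the plus strand. Of the 16, 14 lay at 13 positions within 88 nt (chrM:16059-16146), and 5 of the control region's minus strand cDNAs were at low-FDR sites of the sum. This cluster was chosen after its values were seen.

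Uridine stood at the crosslink for 57.5% of the chrM cDNAs (56.1 to 58.9%) and 47.5% of the positions (45.4 to 49.6%). On the plus strand the share was 57.6% of cDNAs against 28.7% of all nucleotides of that strand, and on the minus strand 56.3% against 34.5%. The other bases were below their share of the strand, with A at 19.8% of plus strand cDNAs against 34.5%, C at 14.9% against 24.4% and G at 7.75% against 12.4%. Coding genes had the highest U share of the gene classes at 66.4% of cDNAs (62.9 to 69.7%), followed by rRNAs at 56.4% (54.8 to 58.1%), against 30.1% and 26.4% of their nucleotides. In low-FDR sites the share was 61.2% in replicate 1 and 69.8% in replicate 2.

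The share of U was higher at positions with more cDNAs. It was 41.04% at the 1245 positions with 1 cDNA (38.3 to 43.8%), 48.9% at those with 2 to 4 (45.2 to 52.7%) and 79.7% at the 187 positions with 5 to 9 (73.2 to 85.2%). At the 34 positions with 10 or more it was 76.5% (58.8 to 89.3%), and 6 of the 10 highest positions of the plus strand had U, although the 3 highest of all, shown above, centre on A, C and A.

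Against the other chromosomes, chrM sites had less U. Among low-FDR sites of the sum, U stood at 48.3% of chrM sites (44.4 to 52.2%) and 73.0% of the others (two-sided Fisher's exact test over sites, p = 5.61e-40). In replicate 1 the shares were 49.7% and 72.6% (Fisher's exact p = 2.48e-28), and in replicate 2 they were 61.2% and 82.9% (Fisher's exact p = 2.35e-11), so the difference had 1 direction in both. Neighbouring sites share RNA molecules and sequence, so these p-values cover counting error only. The surroundings of the sites of the sum differed as well. Over the 31 nt centred on the site, the mean U share was 34.3% for chrM and 43.7% for the others. At the nucleotide 15 nt upstream it was 32.6% and 39.0%. The U share of the RNAs of other chromosomes was not measured, so the tests do not compare a preference for U over background. The classes differed among the low-FDR sites of the sum. U stood at 43.2% of rRNA sites (38.6 to 47.8%), 46.5% of tRNA sites (34.5 to 58.7%) and 70.2% of coding sites (60.4 to 78.8%). The interval of the coding sites covers the 73.0% of the other chromosomes. A run of UUUUU, read on the crosslinked strand within the 31 nt centred on the site, was present at 26 of the 642 chrM sites (4.05%) and at 36.6% of the others. By replicate, it was present at 2.31% of chrM sites against 37.2%, and at 0 of 170 (0%, exact upper bound 2.15%) against 51.9%. Of all 31-nt windows of chrM, 2.16% of those on the plus strand and 8.68% of those on the minus strand hold UUUUU. The matching share for the RNAs of other chromosomes was not measured. Among all crosslinked positions of coding genes the share was 9.45% (7.25 to 12.04%), against 4.18% of all windows of these genes, and among those of rRNAs 0.772% (0.371 to 1.41%) against 1.06%.

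**Figure D5:**
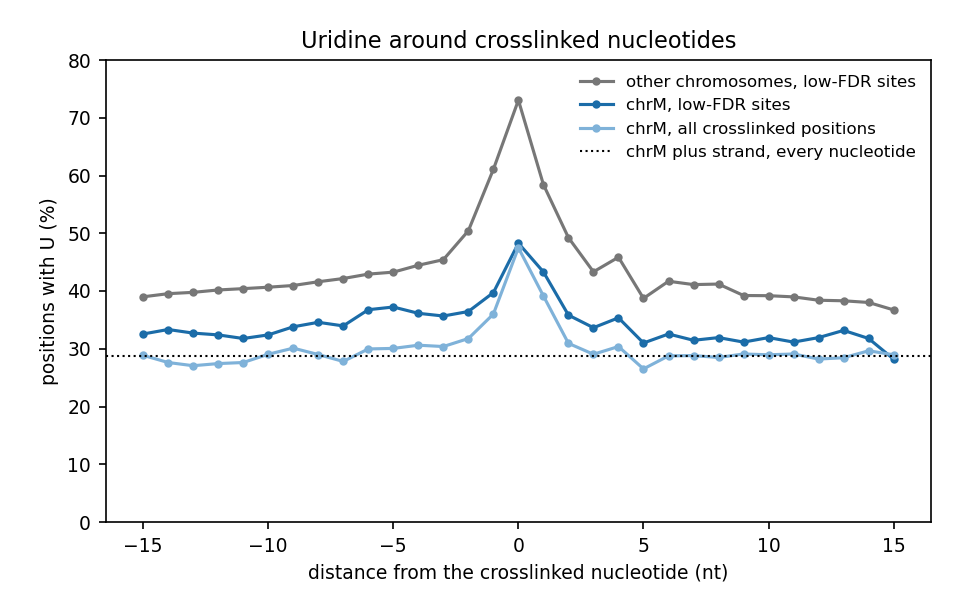
Share of positions with U (vertical axis, %) at each distance in nt from the crosslinked nucleotide, for low-FDR sites of other chromosomes (grey), low-FDR sites of chrM (dark blue) and all crosslinked positions of chrM (light blue), both replicates summed; the dotted line is the share of U in the chrM plus strand. All 3 curves are highest at the crosslink, at 73.0%, 48.3% and 47.5%.

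A smaller share of chrM positions passed the site calling. Of 2169 positions, 642 were low-FDR sites (29.6%, 27.7 to 31.6%), against a background of 38.0% over all positions of the map and 38.05% on the other chromosomes (two-sided Fisher's exact test, odds ratio 0.685, p = 2.17e-16). With the low-FDR sites of replicate 2 alone, over the same positions of the summed map, the shares were 7.84% and 8.43%. The test did not pass (Fisher's exact p = 0.353). Positions without a cDNA in replicate 2 could not be called there, so these shares cannot show how often its own positions passed. In the sum, the gap was wider at positions with at least 2 cDNAs, where 45.3% of chrM positions (42.1 to 48.6%) passed and 87.8% of all such positions did. The chrM positions were also the more densely covered, since 57.4% held a single cDNA, against 84.6% elsewhere. By class, 35.6% of rRNA positions, 40.3% of tRNA positions and 16.9% of coding positions were low-FDR sites. The part of the density of crosslinks in these shares was not tested.

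Of the chrM sites of replicate 2, 125 of 170 (73.5%, 66.2 to 79.99%) were also sites of replicate 1, which is 24.1% of the sites of replicate 1. On other chromosomes the matching shares were 62.0% and 16.9%. Within 15 nt, 162 of the 170 sites had a site of replicate 1 on the same strand. In reverse, 284 of the 519 sites of replicate 1 (54.7%) had one of replicate 2. Matches within 15 nt were not counted on other chromosomes, and the part of densely packed sites in these values was not tested. At each of the 125 shared sites the counts of both replicates added up to the count of the sum.

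The respiratory chain also has many subunits encoded in the nucleus, which are translated in the cytosol. Of 74 such genes matched to the annotation, 51 had low-FDR cDNAs on exons in replicate 1 and 34 in replicate 2, and 34 had them in both, with 1622 and 449 cDNAs in all. These are 68.9%, 45.9% and 45.9% of the list, against 33.3%, 23.5% and 22.7% of all 21938 nuclear protein-coding genes of the annotation, expressed or not. The 13 mitochondrial coding genes had 120 and 6, in 5 genes and 1 gene. Highest among the nuclear genes in the sum were Atp5a1 of ATP synthase with 310 cDNAs (208 and 81 by replicate), Ndufc2 of complex I with 173 (113 and 54) and Uqcrc2 of complex III with 148 (112 and 34). Complex V was seen only through its nuclear subunits, with 481 and 140 cDNAs, while mt-Atp6 and mt-Atp8, which have no unique 32-mer, had none.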

How the data were processed

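Per the file headers, the deposited values are signed counts of unique cDNAs per crosslinked nucleotide, a score whose sign gives the strand, not scaled to depth. The authors mapped barcode-collapsed reads to mm9 with Bowtie (version not given in the sources used here) in iCount and called low-FDR sites with 100 permutations and a neighbourhood of 15 nt, on each replicate and on their sum; they lifted the latter list to GRCm38. All 642 chrM rows are equal in both lists, so GENCODE M21 and the RefSeq sequence were applied without conversion. Nuclear exons used the lifted positions. Totals were 639108 and 165081 low-FDR cDNAs in replicates 1 and 2; an unfiltered map was used for the sum only.

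A cDNA on overlapping genes was assigned to rRNA, then tRNA, then coding. A nucleotide was unique if the 32 nt after it occur nowhere else in GRCm38. Shares carry 95% Clopper-Pearson intervals and counts exact Poisson intervals (Python 3.11.15, scipy 1.17.1). Their code was run on simulated cDNAs drawn independently, which does not cover clustering of cDNAs or differences between replicates. PCR duplicates were collapsed by barcode, and intervals cover counting error only. Both rRNAs and all coding genes were described, with the 5 tRNAs highest per 100 nt, genes with 10 or more antisense cDNAs and the 10 highest positions per strand. Members and lists were chosen with earlier results of these data known. The labels do not say that replicates came from separate mice. One marker gene is not reported here.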

Additional observations from a re-analysis of the deposited data

How the results depend on the processing

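Counting crosslinked positions in place of cDNAs gave a chrM share of 0.195%, a plus strand share of 92.9%, a U share of 47.5%, a sense share of 97.2% and an rRNA share of 62.1%. Keeping positions with at least 2 cDNAs gave 0.536%, 96.6%, 63.4%, 99.9% and 85.5%. Pooled low-FDR sites gave a plus strand share of 96.8%, a U share of 60.4% and an rRNA share of 83.5%. The nucleotide 1 upstream of the crosslink had a U share of 39.8% and that 1 downstream 43.7%. Unique 32-mers moved mt-Co1 to 30.3 and mt-Nd4 to 10.6 cDNAs per 100 nt; mt-Rnr2 went to 155.6 and mt-Nd5 to 9.27. Leaving out a replicate gave 371 to 1383 low-FDR chrM cDNAs and 7.84 to 23.9% of the chrM positions of the summed map as low-FDR sites. Without replicate 1 the deficit against other chromosomes no longer passed the test (8.43% there, Fisher's exact p = 0.353), and the cause was not tested. The summed map stayed the denominator, so positions without cDNAs of the replicate kept counted as not called. The other 15 settings of these results stayed within the interval of the reported value, on the same side of the test or, for low-FDR chrM cDNAs at positions with at least 2 (1864 of 2087), within 1.5 times of it. The unfiltered map is a sum, so no replicate could be left out of it, and no fit with replicate as a block applies to a single group.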
